A study of Mus musculus with 2 samples.

Results

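Chromatin boundaries that lie inside the body of a protein-coding gene, away from any gene start, were described in mouse olfactory sensory neurons. An autosomal boundary was taken when its midpoint lay in a protein-coding gene and no protein-coding, lincRNA or antisense gene began within 10 kb of its 5 kb interval. Gene positions were those of GENCODE M21 on GRCm38. Of the 7435 boundaries in the series, 7035 were autosomal, and 1633 of these met the rule. The rule used positions only and no score or sequence. By leaving out starts it also shapes the place along the gene and the base composition, so both are read beside all 5 kb bins that meet the same rule. In all, 2373 other autosomal boundaries had a gene start within 10 kb, and 3029 lay outside protein-coding genes and away from starts. They are called start boundaries and intergenic boundaries here.

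The boundaries came from in situ Hi-C, in which neighbouring DNA ends are joined inside fixed nuclei and the joined pairs are sequenced. The cells were mature neurons that express Olfr16 (MOR23), an odorant receptor gene, sorted as Olfr16+ from olfactory epithelium. The mice were MOR23-GFP adults of mixed sex, with the strain not specified. Biological replicate 1 held 28000 cells and biological replicate 2 held 24400 cells, fixed in 1% formaldehyde and cut with DpnII, and no treatment or second group was included. The authors called the boundaries once, on both replicates combined, so no boundary has a value per replicate, the depth behind each is unknown, and no comparison below carries a test over samples. Intervals are exact 95% intervals that cover counting error only. The number of animals behind each replicate and gene expression values were not analysed here, so the labelled cell type was not checked against its markers.

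A boundary is a position that contacts across it avoid, so that the sequence on its left and right folds into separate domains, often called topologically associating domains. In vertebrates many boundaries are held by the zinc finger protein CTCF, which stops the loop-extruding cohesin ring when its motif faces the incoming loop. Active gene starts are another well known place for boundaries, and transcription through a gene and its end can also shape contacts.

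The 5 highest-scored gene body boundaries with a match to the CTCF consensus inside their interval are shown, because this sequence was found more often at gene body boundaries than in other gene body sequence. Each line gives 50 bases of the GRCm38 reference (RefSeq assembly), read 5′ to 3′ along the consensus, with the 12-base match in capitals.
Plcb1, chr2:135328979-135329028, minus strand: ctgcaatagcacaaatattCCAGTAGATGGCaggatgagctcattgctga
Sulf2, chr2:166082359-166082408, minus strand: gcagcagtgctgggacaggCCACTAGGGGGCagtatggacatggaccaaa
Dapk1, chr13:60759327-60759376, plus strand: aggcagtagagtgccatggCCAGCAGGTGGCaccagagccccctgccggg
Yipf7, chr5:69521078-69521127, minus strand: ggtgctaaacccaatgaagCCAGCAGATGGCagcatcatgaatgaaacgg
Msrb3, chr10:120876357-120876406, minus strand: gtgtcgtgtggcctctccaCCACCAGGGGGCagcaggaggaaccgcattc
The Yipf7 stretch overlapped a coding exon, and the other 4 lay in introns. Plcb1 encodes a phospholipase C that acts below G proteins, and its boundary scored 2.59 at 109.4 kb from the nearest gene start. Sulf2 encodes a sulfatase that trims heparan sulfate outside the cell, and its boundary scored 2.48 at 6.91 kb from the gene's 3′ end. The boundary in Dapk1, a death-associated protein kinase gene, scored 2.24 at 3.19 kb from the 3′ end. The boundary in Yipf7, of a family of Golgi and ER membrane proteins, scored 2.16 at 3.33 kb from the 3′ end. The boundary in Msrb3, a methionine sulfoxide reductase gene, scored 1.93 and lay in intron 1 of 6, 19.1 kb from the gene's own start. 

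Among all gene body boundaries, 133 held a match inside the interval, 129 of them with 1 match and 4 with 2. Of those 4, 3 genes chosen after their values were seen show the arrangements found. In Ptgis, the prostacyclin synthase gene, and in Ror2, a Wnt receptor gene, the paired matches ran the same way. In Nsmce2, a SUMO ligase gene, the left match ran on the minus strand and the right match on the plus strand, so that they pointed away from each other. Left and right give the order within each pair. The pairs of Ptgis and Nsmce2 lay on either side of the boundary midpoint. Both Ror2 matches lay to the right of it, at 1.06 and 2.42 kb.
Ptgis left, chr2:167222313-167222362, plus strand: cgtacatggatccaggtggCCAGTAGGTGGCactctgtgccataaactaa
Ptgis right, chr2:167224416-167224465, plus strand: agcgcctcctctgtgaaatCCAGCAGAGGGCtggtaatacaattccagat
Ror2 left, chr13:53118540-53118589, plus strand: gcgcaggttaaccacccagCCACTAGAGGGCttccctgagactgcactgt
Ror2 right, chr13:53119895-53119944, plus strand: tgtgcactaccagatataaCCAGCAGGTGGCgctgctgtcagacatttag
Nsmce2 left, chr15:59386414-59386463, minus strand: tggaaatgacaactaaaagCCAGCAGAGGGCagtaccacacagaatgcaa
Nsmce2 right, chr15:59389393-59389442, plus strand: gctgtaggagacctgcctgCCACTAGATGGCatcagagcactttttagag
All 6 stretches were intronic. These boundaries scored 0.821 in Ptgis, 0.310 in Ror2 and 0.275 in Nsmce2. The fourth gene, Stag1, encodes a cohesin subunit, and its boundary scored 0.435.

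Gene body sequence away from starts held fewer boundaries than its share of all autosomal bins would give. Gene body boundaries made up 23.2% of autosomal boundaries (22.2 to 24.2%), whereas 30.4% of all autosomal 5 kb bins met the same rule, a ratio of 0.763. The bins as a whole include those near starts, which the rule removes from gene bodies, so a ratio below 1 is partly set by the rule. Intergenic boundaries, also away from starts, made up 43.1% of boundaries in 46.9% of bins. The density was 2.24 boundaries per Mb in eligible gene body sequence (2.13 to 2.35), 4.37 per Mb within 10 kb of a gene start (4.19 to 4.54) and 2.70 per Mb in intergenic sequence (2.60 to 2.79). Over all autosomal bins, 1.47% were a boundary. Each autosome held between 62 and 126 of the gene body boundaries, and their share of a chromosome's boundaries ran from 19.9% on chromosome 12 to 33.5% on chromosome 19.

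Within genes, the boundaries lay towards the 3′ end. A total of 411 of the 1633 had the 3′ end of their host gene within 10 kb of the interval, which is 25.2% (23.1 to 27.3%) against 12.6% of the bins that met the rule, a ratio of 1.99 (1.83 to 2.17). The host was the longest protein-coding gene around the midpoint. The density was 4.46 per Mb within 10 kb of the host's 3′ end (4.04 to 4.92), which overlaps the interval of the density at gene starts, and 1.92 per Mb in the rest of the body (1.81 to 2.03). It was higher near the end on 19 of 19 autosomes. By chromosome the density near the end ran from 2.33 per Mb on chromosome 16, where the rest of the body had 2.23 and only 8 boundaries lay near an end, to 7.27 per Mb on chromosome 18.

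The density was graded by distance to the 3′ end. Intervals that contained the end held 4.43 boundaries per Mb, those up to 5 kb from it 4.69, and those at 5 to 10 kb 4.25. At 10 to 25 kb the density was 3.18, at 25 to 50 kb it was 1.91 and at 50 to 100 kb it was 1.39. Beyond 100 kb it was 1.76 per Mb, from 558 boundaries. The higher density thus reached about 25 kb into the gene body, and the lowest density lay between 50 and 100 kb from the end.

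**Figure D1:**
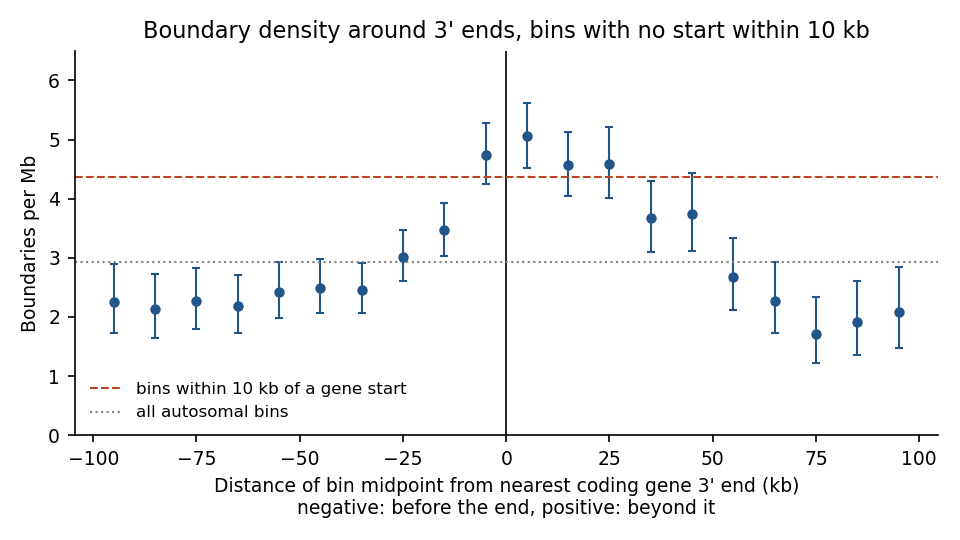
Boundaries per Mb in 10 kb steps of distance to the nearest protein-coding 3′ end, over autosomal bins with no gene start within 10 kb; points are densities and bars are exact 95% Poisson intervals. The density was 2.49 per Mb at 50 to 40 kb before the end, 4.74 in the 10 kb before it, 5.05 in the 10 kb beyond it and 1.71 at 70 to 80 kb beyond it; the dashed line marks bins near a start (4.37) and the dotted line all autosomal bins (2.94).

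The profile of boundary density around 3′ ends takes in all bins with no start within 10 kb, placed by the nearest coding 3′ end. Bins before an end need not lie inside that gene, and bins beyond it may lie in another gene or in none. Past the end, the density stayed at 4.56 and 4.58 per Mb through 30 kb and was still 3.74 per Mb at 40 to 50 kb. Before the end it was 3.46 per Mb at 20 to 10 kb. The profile was therefore not symmetric, and the higher density extended farther beyond the end than before it.

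Measured along the gene from 0 at the 5′ end to 1 at the 3′ end, the boundaries had a median position of 0.660 (0.632 to 0.681), against 0.553 for eligible bins. The final 20% of the gene held 562 boundaries, or 34.4% (32.1 to 36.8%), against 21.7% of bins. The median distance to the 3′ end was 37.6 kb with quartiles at 9.87 and 170.9 kb, whereas the bins' median was 77.1 kb.

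**Figure D2:**
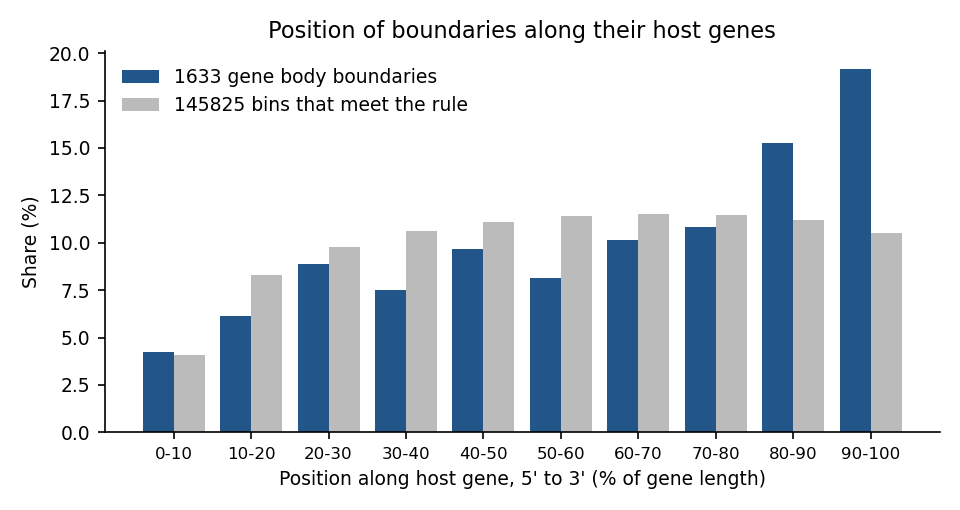
Share of the 1633 gene body boundaries (blue) and of the 145825 bins that meet the rule (grey) by position along the host gene, in steps of 10% of gene length. The final step held 19.2% of boundaries and 10.5% of bins, and the step before it 15.2% and 11.2%; from 10 to 80% of the length every blue bar is the shorter one.

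The excess near the end was seen at every distance from the nearest gene start that was examined. Where the nearest start was 10 to 25 kb away, the density was 4.54 per Mb near the host's end and 2.38 in the rest of the body. At 25 to 50 kb from a start the densities were 4.28 and 1.96, at 50 to 100 kb 4.61 and 1.88, and beyond 100 kb 4.33 and 1.63 per Mb. Density near the end thus stayed between 4.28 and 4.61, while density in the rest of the body was lower farther away. With a converging neighbour the intervals of density overlapped, with 4.18 per Mb (3.43 to 5.05) at the 107 boundaries where another gene ended head-on within 10 kb and 4.57 per Mb (4.07 to 5.12) at the other 304. The median scores were 0.781 and 0.631. Only 25 boundaries had another coding gene's end and not the host's within 10 kb, at 3.30 per Mb (2.14 to 4.88) and a median score of 0.379.

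Bins near 3′ ends also differed from the rest of the body in other respects. They overlapped a coding gene's exon in 84.8% of cases against 32.5% in the rest of the body, had a median GC content of 43.8% against 41.6%, and held a CTCF consensus match within 10 kb in 18.7% of cases against 10.7%. The part of exons and GC content in the result was not tested. For the consensus, the density among bins with a match within 10 kb was 7.78 per Mb near the end and 4.69 in the rest of the body, and without a match it was 3.70 and 1.59 per Mb.

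Of the 15 highest-scored gene body boundaries, those in Cacna2d2, Ano5, Atp9b, Sulf2 and Lactbl1 lay within 10 kb of the host's 3′ end. Among all Strong gene body boundaries the share near the end was 29.7%. The boundary in Cacna2d2, which encodes an auxiliary subunit of voltage-gated calcium channels, scored 2.84 (chr9:107515001-107520000) and lay 9.34 kb from the 3′ end. In Ano5, an anoctamin gene linked to muscular dystrophy, it scored 2.64 (chr7:51595001-51600000) and covered the 3′ end in exon 22 of 22. In Atp9b, a P4-type ATPase gene, it scored 2.55 (chr18:80735001-80740000) and lay 0.860 kb from the end, with a consensus match within 10 kb. Lactbl1, a beta-lactamase-like gene, had a boundary of score 2.46 over its last exon. Next in rank near a 3′ end was Smn1, whose product builds spliceosomal RNPs, with 2.45 over its last exon. Smn1 was also the shortest host of all, at 12.8 kb.

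Others of the 15 lay more than 10 kb from the 3′ end of their gene, some of them far inside it. Trpm8, the gene of the cold and menthol receptor channel, held the highest score of the list at position 0.267, in intron 3 of 28, where an annotated coding transcript of Trpm8 itself began within 10 kb. Dlg2, of a postsynaptic scaffold protein, had a boundary in intron 17 of 27, 354.2 kb from the 3′ end and with no consensus match within 10 kb. Lrrc7, of a postsynaptic protein, scored 2.78 at position 0.949, and Slc1a3, the glial glutamate transporter gene, scored 2.59 at 0.760. Pate2 (2.72), Adgre1 (2.68), the gene of the macrophage marker F4/80, and the vomeronasal receptor gene Vmn1r4 (2.65) had theirs at positions 0.185, 0.191 and 0.396. Of these 7, none had a consensus match within 10 kb.

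The score is the authors' own value of boundary strength, and the authors' class Strong covers scores of at least 0.5004 in this list. The median score of gene body boundaries was 0.531 (0.505 to 0.560), between 0.657 at start boundaries (0.633 to 0.694) and 0.447 at intergenic ones (0.430 to 0.471). The median was below that of start boundaries on 18 of 19 autosomes and above that of intergenic ones on 16 of 19. Strong boundaries numbered 865, or 53.0% (50.5 to 55.4%), against 53.1% of all autosomal boundaries, 62.7% at starts and 45.6% in intergenic sequence. The share of Strong boundaries in gene bodies was therefore that of the list as a whole.

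Scores also differed between the 3′ end and the rest of the body. Near the host's 3′ end the median was 0.661 (0.596 to 0.718), with 62.5% Strong (57.7 to 67.2%). In the rest of the body it was 0.498 (0.475 to 0.523), with 49.8% Strong (46.9 to 52.6%). The interval near the end overlaps that of start boundaries, and neither overlaps that of the rest of the body. The difference was smaller close to a start. Where the nearest start was 10 to 25 kb away, the medians were 0.710 near the end (0.635 to 0.814) and 0.663 in the rest (0.584 to 0.725), with overlapping intervals. With no start within 25 kb they were 0.584 (0.505 to 0.666) and 0.461 (0.435 to 0.488). Beyond 100 kb from the 3′ end the median was 0.405, with 39.8% Strong. At the lower end of the range, Rnf220, Fam227b and Fgfr2 held the lowest scores, which all round to 0.20, the lowest in the list.

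**Figure D3:**
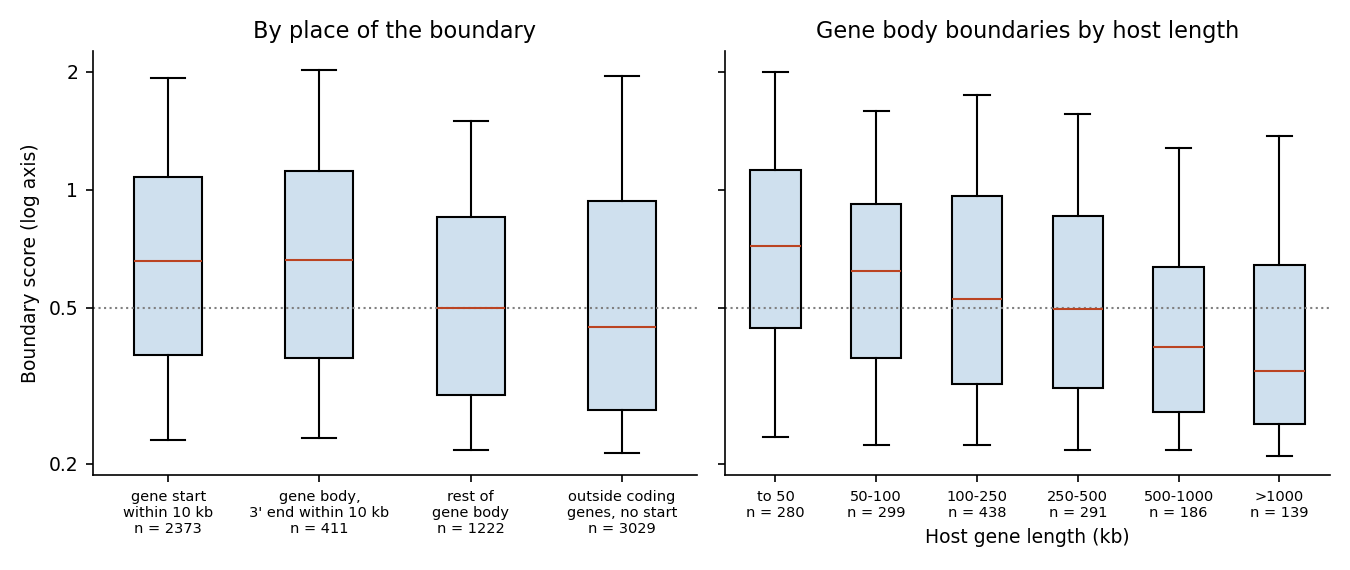
Boundary score on a log axis by place of the boundary (left) and, for gene body boundaries, by host gene length (right); boxes span the quartiles with the median as a line, whiskers the 5th to 95th percentile, and the dotted line is the limit between Weak and Strong. Medians were 0.657 near starts, 0.661 in gene bodies near a 3′ end, 0.498 in the rest of the body and 0.447 in intergenic sequence, and they ran from 0.721 in hosts up to 50 kb down to 0.344 in hosts over 1000 kb.

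Host genes had a median length of 157.6 kb over the boundaries, shorter than the 209.3 kb over eligible bins, and ran from 12.8 kb to 4435 kb. Scores were lower in each longer class of hosts, and densities in each up to 1000 kb. In hosts up to 50 kb the density was 3.64 per Mb with a median score of 0.721 and 71.8% Strong. In hosts of 100 to 250 kb these values were 2.16 per Mb, 0.525 and 53.2%. In hosts of 500 to 1000 kb they were 1.82 per Mb, 0.398 and 34.9%, and in hosts over 1000 kb 1.91 per Mb, 0.344 and 31.7%, from 139 boundaries. In hosts up to 50 kb, 180 of the 280 boundaries lay within 10 kb of the 3′ end. Much of the eligible sequence of such short genes also lies there, so the count alone shows no excess. Their densities were 4.03 per Mb near the end and 3.10 in the rest of the body, against 4.46 and 1.92 over all hosts. Away from that end the densities were 3.10, 2.05, 1.82, 1.79, 1.82 and 1.87 per Mb from the shortest to the longest class, so they differed little above 100 kb. Near the end they were 4.03, 4.29, 5.94 and 4.90 per Mb in the classes up to 500 kb, with no fall by length among these. In hosts of 500 to 1000 kb and over 1000 kb they were 2.20 and 5.67 per Mb, from only 4 boundaries each. Consensus matches within 10 kb were found at 31.4, 28.8, 32.2, 28.2, 22.0 and 11.5% of boundaries from the shortest to the longest class, so their share was lower only in hosts over 500 kb. Over eligible bins the share was 18.0% in the shortest class and 6.65% in the longest. GC content moved with length too, from a median of 45.0% to 39.5% over these classes, and its part in the result was not tested. Distance to the nearest start shows a like order, with a median score of 0.686 at 10 to 25 kb, 0.585 at 25 to 50 kb, 0.502 at 50 to 100 kb and 0.385 beyond 100 kb.

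In all, 1433 genes were hosts, 14.7% of the 9747 genes with eligible sequence. Most, 1297 genes, held 1 boundary, 103 held 2, 20 held 3 and the others 4 to 9, so 336 boundaries shared a host with another. The share of genes with a boundary was larger for longer genes, from 5.51% of those up to 50 kb to 80.9% of those over 500 kb. The host's own start had a boundary within 10 kb in 57 of 1433 genes (3.98%), against 1169 of the 8314 other genes (14.1%). For hosts up to 50 kb this was 0 of 280, with an approximate upper limit of 1.07%, taken as 3 of 280 and not as an exact interval. Adjacent autosomal boundaries in the list were never closer than 50 kb, and only 116 of 7016 pairs were within 100 kb, so the list itself limits this count in short genes. In genes of 250 to 500 kb, where the spacing limits less, the shares were 10.5% of 248 hosts and 16.9% of 237 other genes.

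Very long genes were crossed by several boundaries, which differed widely in score within a gene. Dlg2 held 5, with scores of 1.32, 0.466, 0.263, 3.23 and 0.210 from its start to its end, so the high one stood between low neighbours. Pde4d, a cAMP phosphodiesterase gene, held 5, with 0.339, 1.38, 0.730, 1.21 and 0.399, and the 3 in its middle were Strong. Cntnap2, of a neurexin family adhesion protein, held 4 Weak boundaries of at most 0.310 and then a Strong one of 1.27 with its midpoint 1773 kb from its start.

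Prkg1, a cGMP-dependent kinase gene, held 5 boundaries, with a Strong one of 0.503 whose midpoint lay 47.5 kb from the start, 3 Weak ones and a Strong one of 1.49 at 30.5 kb from the 3′ end. Lsamp, of a limbic adhesion protein, held 7, with scores of 0.680, 0.245, 0.856, 0.290, 0.202, 0.249 and 1.04. The last of these lay 11.7 kb from the 3′ end and held a consensus match inside its interval. The 6 boundaries of Csmd1, a large membrane protein gene, were all Weak, from 0.247 to 0.477. In Prkg1, Lsamp and Cntnap2, then, the highest-scored boundary was the one nearest the 3′ end, although in Cntnap2 it still lay 469.2 kb from that end. In Dlg2, Pde4d, Csmd1, Fgfr2 and Gm20388 the highest-scored boundary was followed by a later one with a lower score.

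**Figure D4:**
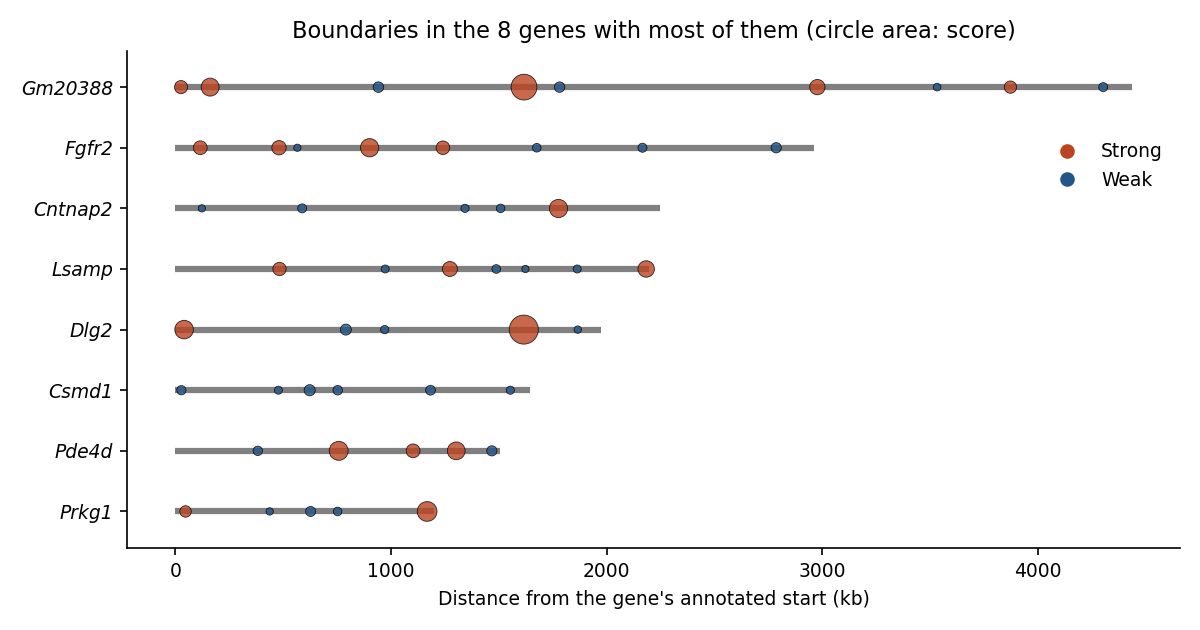
The 8 genes with most gene body boundaries, drawn to scale from the annotated start (0 kb) to the 3′ end (grey line); each circle is a boundary, its area shows the score and its colour the authors' class (red Strong, blue Weak). Csmd1 has 6 Weak boundaries only, Dlg2 has the largest circle (3.23), and Gm20388 and Fgfr2 are drawn at the lengths GENCODE M21 gives them, 4435 and 2961 kb.

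The longest hosts call for care. Gm20388 held 9 boundaries and Fgfr2, a fibroblast growth factor receptor gene, held 8, but GENCODE M21 gives these genes 4435 and 2961 kb, across many other genes. All 9 boundaries of Gm20388 lay in its intron 1, and 5 of the 8 in Fgfr2 were also inside another coding gene, Lhpp, Ctbp2, Htra1, Acadsb or Oat. Over the whole set, 25 boundaries lay in more than 1 coding gene.

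Gene groups were read against 2.24 boundaries per Mb over all eligible gene body sequence. Genes of olfactory sensory neurons held 10 boundaries in 9 of 33 genes with eligible sequence, 1.75 per Mb (0.840 to 3.22), which includes the overall density. Among the genes of the odour transduction cascade, Gnal, of the olfactory G protein alpha subunit, had a boundary of 2.27 (chr18:67105001-67110000) in intron 1 of 11, 16.8 kb from its start, with a consensus match within 10 kb. Pde1c, of a calcium-dependent phosphodiesterase of the cilia, had one of 1.13 in intron 2 of 18. Slc24a4, of a sodium and calcium exchanger, had a Weak one of 0.359, and Ano2, of the calcium-activated chloride channel, a Weak one of 0.339 at 20.1 kb from its 3′ end. Gnal and Pde1c thus held Strong boundaries in their 5′ introns, and Slc24a4 and Ano2 Weak ones farther along. These are single boundaries and the order is not that of the whole set. Over all gene body boundaries, 50.7% were Strong in the first 10% of the gene and 55.9% in the last 10%.

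Among transcription factor genes of these neurons, Nfib had a boundary of 1.35 and Ebf2 one of 0.292. Among the adhesion and guidance genes, Kirrel3, which helps sort olfactory axons, had 0.852 and 0.414, Slit1 had 0.326 and Robo2 had 0.310. In the whole group 4 of 10 boundaries were Strong, with a median score of 0.387.

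Genes of neuronal and synaptic adhesion held 98 boundaries in 54 of 107 genes, at 1.77 per Mb (1.44 to 2.16), 0.791 of the overall density (0.642 to 0.964). With no start within 25 kb the ratio was 0.843 (0.676 to 1.039), and away from the starts of all transcripts it was 0.819 (0.655 to 1.012), so these intervals include the overall density. Only 29 of the 98 were Strong (29.6%), with a median score of 0.350, and counting Strong boundaries alone the ratio was 0.442. The highest were in Dlg2 and in Nrxn3 (1.64), a presynaptic neurexin gene. Common fragile site genes, which are very long, held 57 boundaries in 21 of 23 genes, at 2.01 per Mb (1.52 to 2.60), with 24.6% Strong, a median of 0.300 and a ratio of 0.416 for Strong ones alone. Dlg2 and Cntnap2 were among the highest of this group. The lists overlap, since long adhesion genes are also fragile site genes, and both have long members, with median lengths of 327.5 and 1223 kb over genes with eligible sequence. The part of length in their scores was not tested.

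Axon guidance genes held 20 boundaries in 16 of 56 genes, at 1.78 per Mb (1.09 to 2.75), with 6 Strong and a ratio of 0.451 for Strong ones alone. The highest was in Robo1, a Slit receptor gene, with 1.63 at position 0.934, followed by Sema3d (1.33) and Rgma (1.10), of a secreted semaphorin and a repulsive guidance molecule. Ion channel genes held 58 boundaries in 48 of 173 genes, at 1.99 per Mb (1.51 to 2.58), 51.7% of them Strong, close to the list as a whole. The highest were in Trpm8, Cacna2d2 and Ano5.

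Cyclic nucleotide and G protein signalling genes held 41 boundaries in 31 of 104 genes, at 2.64 per Mb (1.89 to 3.58), with 25 Strong (61.0%) and a median score of 0.619. Plcb1, Gnal and Rgs17 (1.70), a regulator of G protein signalling, led this group. Zinc finger genes held 12 boundaries in 12 of 203 genes, at 1.67 per Mb (0.865 to 2.93), with 5 Strong. Of these, Zfp618 (1.63) had its boundary at the 3′ end in exon 15 of 15, and Zfp664 (1.32) and Zfp385b (1.20) followed. The group of ribosomal, proteasome and complex I genes held 3, in Mrps31 (0.870), a mitochondrial ribosomal gene, and in Rps6ka5 (0.794) and Rps6kc1 (0.238), kinase genes that the group took in by name.

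A CTCF consensus match lay within 10 kb of 454 boundaries, or 27.8% (25.6 to 30.04%), against 11.7% of eligible bins, a ratio of 2.37. For matches inside the interval the shares were 8.14% and 2.57%. The share was above that of the bins on 19 of 19 autosomes. At start boundaries it was 27.6% against 16.9% of bins near starts, and at intergenic ones 19.05% against 8.30%. Within gene bodies, 32.6% of boundaries near the 3′ end and 26.2% of the others had a match. Most gene body boundaries, 1179 of them, had none within 10 kb, which says only that these letters are not in this window. Boundaries with a match had a median score of 0.622 with 62.6% Strong, and those without had 0.490 and 49.3%.

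**Figure D5:**
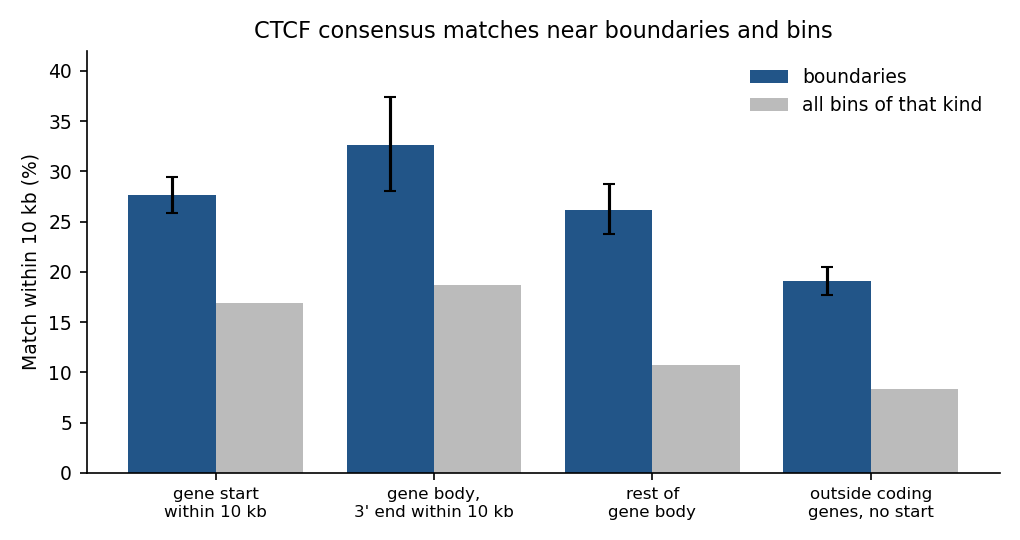
Share of boundaries (blue, with exact 95% intervals) and of all bins of the same kind (grey) that have a CTCF consensus match within 10 kb. The blue bars stand at 27.6, 32.6, 26.2 and 19.05% from left to right and the grey bars at 16.9, 18.7, 10.7 and 8.30%, so the boundaries were higher in all 4 kinds of place.

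The strand of the matches differed with the side of the boundary. Of 264 matches to the right of a boundary midpoint, 64.0% were on the plus strand (57.9 to 69.8%), against 42.9% of 315 to the left (37.3 to 48.5%). Matches more often pointed away from the boundary into the flanking domain. Relative to the host gene, 311 of 579 matches ran in the direction of transcription (53.7%, 49.6 to 57.8%), with 62.9% on the 3′ side of the boundary and 42.9% on the 5′ side.

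The boundaries overlapped an exon of a coding gene in 866 cases, or 53.0% (50.6 to 55.5%), against 39.2% of eligible bins. The density was 3.03 per Mb in bins with an exon and 1.73 per Mb in bins without, with median scores of 0.634 and 0.449. Near the 3′ end 83.0% of boundaries against 84.8% of bins overlapped an exon, whereas in the rest of the body the shares were 42.96% and 32.5%. The median GC content was 43.1% at the boundaries and 41.8% over eligible bins, and the share of soft-masked repeat sequence was 22.9% against 23.3%.

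The rule takes 1 start per gene, so other transcript starts can still lie near. An annotated transcript of the host began within 10 kb of 531 boundaries, or 32.5% (30.2 to 34.8%), against 27.8% of bins, a difference of modest size. For coding transcripts the shares were 13.8% and 12.8%, with 225 boundaries, which is near the background. Boundaries with a host transcript start had a median score of 0.679 and 65.9% Strong, and those without had 0.464 and 46.7%. The 5 highest-scored with such a start were in Trpm8, Cacna2d2, Vmn1r4, Slc1a3 and Atp9b. Starts of genes of other kinds, mostly processed pseudogenes, unclassified transcripts and miRNAs, lay within 10 kb of 229 boundaries (14.0%), against 14.4% of bins.

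At the limit of the rule, the boundaries just inside lay 10.01 kb from a start in Vps13d (score 0.611), 10.03 kb in Gm4952 (0.410) and 10.06 kb in Ints3 (0.672). Those just outside lay 9.96 kb from one in Igf2bp3 (0.693), 9.95 kb in Bpifb4 (0.374) and 9.94 kb in Accs (0.772). Gene body boundaries had their nearer neighbouring boundary at a median of 195 kb and the farther at 335 kb. Start boundaries had 180 and 295 kb, and intergenic ones 220 and 435 kb, so gene body boundaries stood between them in spacing as in score.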

How the data were processed

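The data were 1 list of boundaries from 2 replicates, which the authors called on the combined contact matrix of GRCm38, per the series design text and the submitters' processing notes. Each interval carries a class and a score, which is the authors' deposited score of boundary strength. Its formula, like the caller and its window, was not given in the sources used here, and the depth is unknown. Boundaries and all autosomal 5 kb bins were placed against GENCODE M21. Of 492539 bins, 13348 with over 50% unknown bases were left out, leaving 479191. Distances run from the interval's edge, and a bin counts as near within 10 kb. Densities have exact Poisson intervals, shares Clopper-Pearson intervals and medians order-statistic intervals, all at 95% and for counting error only. The CTCF core consensus of 12 bases was searched for on either strand and had 12245 matches on the autosomes. The 8 gene lists were defined by symbol.

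Genes were named by a rule: the hosts of the 15 highest scores, the 8 genes with most boundaries, the 6 highest near a 3′ end among Strong ones, the 5 highest with a match inside, the 5 highest with a host transcript start, the 3 lowest, every boundary in the olfactory list, the 3 highest genes of each other list, and 3 on each side of the 10 kb limit. The rule, the boundaries and the lists were chosen with earlier results of these data known. Scripts used Python 3.11.15, numpy 2.4.6, pandas 2.3.3 and scipy 1.17.1 and were tested on simulated data. In all, 14 alternative settings were tried. Contact matrices, insulation and compartment tracks were not used here. Some genes that the rule names are not reported here.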

Additional observations from a re-analysis of the deposited data

How the results depend on the processing

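Of 95 values recomputed under the alternatives, 49 stayed within the interval of the reported value or, for counts, within 1.5 times of it. The other 46 moved beyond these limits. The limits are wide for counts and for small lists. With no start within 25 kb, a count of 1091 against 1633 and a zinc finger ratio of 0.562 against 0.748 both stayed within them. Among the values that stayed within their interval, 3 list ratios with intervals that include 1 crossed 1. With no start within 25 kb, ion channel genes went from 0.891 to 1.03 and fragile site genes from 0.897 to 1.04. Away from the starts of all transcripts, olfactory neuron genes went from 0.782 to 1.01. The interval of the adhesion ratio included 1 under both of these settings (0.843 and 0.819). Asking for no start within 5 kb gave a share of autosomal boundaries of 27.5%. With no start within 25 kb the share was 15.5% (ratio 0.681), 17.3% lay near the 3′ end (ratio 2.19), and the medians were 250.03 kb for host length, 0.480 for score and 42.3% for GC, with 47.6% Strong, 25.6% with a consensus match and 25.1% with a host transcript start. Asking for the whole interval inside the gene gave 22.0%, with 21.2% near the end and a median position of 0.629. Starts of protein-coding genes only gave 24.7%, and starts of every biotype 19.96%. Avoiding the starts of all transcripts left 1082 boundaries, or 15.4% (ratio 0.710), with 21.3% near the end (ratio 2.28), a median position of 0.625, medians of 239.4 kb, 0.460 and 42.3% GC, 46.3% Strong and 25.3% with a match. Strong boundaries alone numbered 865, with 29.7% near the end (ratio 2.35), medians of 117.6 kb, 0.881 and 43.98% GC, 32.8% with a match (ratio 2.80) and 40.5% with a host transcript start; the list ratios were 0.442 for adhesion, 0.451 for axon guidance and 0.416 for fragile site genes. An end within 5 kb held 15.6%, and within 25 kb 43.1% (ratio 1.71). A match inside was found at 8.14% (ratio 3.17) and within 25 kb at 42.7% (ratio 1.83). Narrower or wider windows change such shares by construction. Stricter or looser start rules likewise set the direction in which the share of autosomal boundaries moves. Keeping Strong boundaries alone must raise the median score. Asking for the whole interval inside the gene drops intervals that overrun its 3′ end, which lowers the share near the end and the median position. For the other values that moved the cause was not tested. Adding X, taking the shortest host and using bins between the first and last boundary moved no value beyond its interval.

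No paired analysis was possible because the boundaries were called once on both replicates of 1 group, and leaving out a replicate was not run because the list has no value per replicate. How well each boundary repeats between animals is unknown, as is the depth behind it, and the choice of 5 kb bins limits every distance. Host lengths follow the annotation, in which a few genes span many others.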
